A study of Homo sapiens with 59 samples.

Results

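RNA levels were compared between A549 cells treated for 24 h with 500 µg/mL of Citri Unshius Pericarpium (3 libraries) and A549 cells treated for 24 h with 500 µg/mL of Cimicifugae Rhizoma (3 libraries). These 6 libraries were chosen by their labels from the 59 libraries of the series, which holds 8 herbal preparations and a vehicle. Citri Unshius Pericarpium is the dried peel of the mandarin Citrus unshiu, and Cimicifugae Rhizoma is the dried rhizome of bugbane (Actaea, formerly Cimicifuga). Both were 70% ethanol extracts, and both groups carry the same library set number, 12, in their library codes. The same extracts at 100 and 20 µg/mL (3 libraries each, set 12) and 3 vehicle libraries, coded apart from set 12, were used alongside. Vehicle was DMSO, at 0.1% by the samples' labels and 2% by the design text. A549 is an established human lung adenocarcinoma line, so 1 transformed epithelial line stands for the tissue. The labels do not say whether replicates were separate cultures. The p-values rest on a spread between libraries, pooled over all groups of the series, that may be technical. In bulk RNA, fewer cells of a kind and less RNA per cell cannot be told apart.

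An extract is a mixture, and several of the sensors it meets in an epithelial cell are well known. The aryl hydrocarbon receptor (AhR) is a cytosolic transcription factor that binds planar aromatic ligands, moves to the nucleus, pairs with ARNT and switches on xenobiotic-metabolizing enzymes of the CYP1 family together with its own brakes, AHRR and TIPARP. NRF2 senses electrophiles through KEAP1 and drives antioxidant and heme-degrading genes; A549 carries a KEAP1 mutation that leaves NRF2 active. The NR4A orphan nuclear receptors are immediate early genes that respond to cyclic AMP, calcium and growth factor signals.

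Replicate 3 of the Citri group stood apart from the other 5 libraries and is treated separately below. It had 4600.9 CPM in antisense noncoding genes, against 2788.9 and 2463.5 CPM in Citri replicates 1 and 2 and 2780.2 to 2892.5 CPM in the Cimicifugae libraries. Mitochondrial mRNA took 1.98% of its counts, against 6.73% and 8.27% in the other Citri libraries and 5.96% to 7.78% in the Cimicifugae libraries. Principal component 1 (18.2% of the variance of all 59 libraries) placed it at 107.03, against -17.03 to 6.84 for the other 5. Library totals were 17214755 to 39751161 expected counts in the Citri group, 19757458 to 28015104 in the Cimicifugae group and 19320259 to 27975489 in vehicle; the deepest was Citri replicate 2 and the shallowest Citri replicate 3. Markers of A549 were abundant (KRT8 at 3247 to 9086 CPM in the Citri libraries and 2334 to 2631 CPM in the Cimicifugae libraries). Of 24 markers of other cell types, 13 passed the filter on low counts; summed over all 24 they reached 55.4 to 102 CPM in the Citri libraries, 56.2 to 60.6 CPM in the Cimicifugae libraries and 59 to 62.9 CPM in vehicle. The 102 CPM was in Citri replicate 3, and CD3E was at 0 in all 9 libraries.

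Between the extracts, cells given Citri Unshius Pericarpium held less RNA of CYP1A1, CYP1B1, AHRR and HMOX1 than cells given Cimicifugae Rhizoma. They held more RNA of NR4A1, PDK4, SUSD2 and MGAT5B. The first 3 are AhR targets, and ALDH3A1, another AhR target, was higher in the Citri group. With all libraries, 1425 of 18568 tested genes (7.67%) were called at an adjusted p below 0.05 (edgeR quasi-likelihood, Benjamini-Hochberg), 1163 higher (6.26%) and 262 lower (1.41%) in the Citri group. Without Citri replicate 3, 113 of 18449 genes (0.612%) were called, 94 higher (0.51%) and 19 lower (0.103%). A further fit left out all 4 libraries of set 12 with raised antisense counts, which are that library and 3 at the lower doses, and is called the 55-library fit. It called 456 of 18339 genes (2.49%), 298 higher (1.62%) and 158 lower (0.862%), among them all 113. The fit with all libraries and the one without Citri replicate 3 both called 92 genes with the same sign, 75 higher and 17 lower, which is 6.46% of the calls with all libraries and 81.4% of those without replicate 3. These 92 genes are described first. The 24 genes of largest difference were named only where the 3 Citri and 3 Cimicifugae libraries did not overlap. That separation is therefore no added support for them, and 15.2% of all tested genes showed it. Of the 92 genes, 50 (40 higher and 10 lower) were called in every fit that left out 1 of the 6 libraries. Leaving out Citri replicate 2, the deepest library, kept 66, and leaving out Cimicifugae replicate 1 kept 56. A fit of the 6 libraries alone called 0 genes (670 at an unadjusted p below 0.05). Its adjusted p was 0.632 for each of the 24 genes of largest difference. The other fits above estimate the spread over all 25 groups. Quality weights of limma voom, which fall as a library varies more, were 0.366, 0.443 and 0.0355 in the Citri libraries. They were 0.798, 1.04 and 2.84 in the Cimicifugae libraries. The pooled standard errors and adjusted p-values may therefore understate the spread of the Citri group.

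With all libraries, the 4 members of the AhR list with the largest negative difference were CYP1A1, CYP1B1, AHRR and TIPARP. CYP1A1 (GRCh38 chr15:74719542-74725610, minus strand), which oxidizes polycyclic aromatic compounds, is the classic AhR target. The 250 bases upstream of its start, from RefSeq on GRCh38.p14, are shown with those of both AHRR starts, as the AhR targets called lower in every one of these 3 fits that have a RefSeq window here. Capitals mark each GCGTG, searched on both strands.
CYP1A1 (chr15:74725529-74725778, minus strand): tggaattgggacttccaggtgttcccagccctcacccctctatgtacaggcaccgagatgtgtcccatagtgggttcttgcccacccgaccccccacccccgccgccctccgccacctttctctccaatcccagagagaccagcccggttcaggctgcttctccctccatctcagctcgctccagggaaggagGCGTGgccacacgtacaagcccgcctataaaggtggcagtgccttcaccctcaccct
AHRR, first start (chr5:321464-321713, plus strand): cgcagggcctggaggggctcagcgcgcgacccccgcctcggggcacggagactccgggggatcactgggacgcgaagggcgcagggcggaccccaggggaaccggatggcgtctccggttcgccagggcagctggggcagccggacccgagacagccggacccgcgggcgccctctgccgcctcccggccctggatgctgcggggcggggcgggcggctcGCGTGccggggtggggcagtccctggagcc
AHRR, second start (chr5:322360-322609, plus strand): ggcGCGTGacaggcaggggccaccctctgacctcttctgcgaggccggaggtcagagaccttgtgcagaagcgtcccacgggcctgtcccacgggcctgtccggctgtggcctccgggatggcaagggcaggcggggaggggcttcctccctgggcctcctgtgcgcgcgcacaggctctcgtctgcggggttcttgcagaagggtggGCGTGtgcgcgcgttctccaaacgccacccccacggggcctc
The core occurs once for CYP1A1, its first base 57 bases before the start, once at the first AHRR start and at 2 places at the second. At least 1 core occurs in 32.2% of the 35116 promoter windows of the same length in the RefSeq table, and 2 or more in 10.2%. The other windows searched gave 2 cores at 1 of 3 TIPARP starts and 0 at the others, 1 and 0 at the 2 starts of UGT1A6, 1 and 0 at the 2 starts of NR4A1, and 0 for NQO1, XDH, CYP1A2, LRAT and PDK4. A match is a description of the letters and not a binding site.

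CYP1A1 was at 1.07, 1.98 and 0.617 CPM in the Citri libraries, 5.9, 6.18 and 6.12 CPM in the Cimicifugae libraries and 0.9, 0.732 and 0.615 CPM in vehicle. Every Citri library lay below every Cimicifugae library, and 1 of the 3 lay inside the vehicle range. The difference was -2.20 ± 0.25 on the log2 scale (SE; adjusted p = 1.69e-07, edgeR quasi-likelihood with Benjamini-Hochberg adjustment, as for all adjusted p-values here) and -1.92 ± 0.25 without Citri replicate 3 (adjusted p = 3.29e-06). CYP1B1 (chr2:38066973-38109902, minus strand), which oxidizes estrogens and aromatic compounds, was at 81.7, 78.2 and 67.3 CPM in the Citri libraries, 162, 145 and 152 CPM in the Cimicifugae libraries and 58.4, 54.7 and 52.7 CPM in vehicle. The 3 groups did not overlap, and the Citri libraries lay between the Cimicifugae and the vehicle libraries. It was lower by a log2 difference of -1.01 ± 0.10 (adjusted p = 1.20e-08), and of -0.93 ± 0.11 without Citri replicate 3 (adjusted p = 4.52e-07). AHRR (chr5:304176-438291, plus strand), the repressor of AhR, was at 2.94, 3.31 and 2.84 CPM in the Citri libraries, 6.14, 5.99 and 5.76 CPM in the Cimicifugae libraries and 2.78, 2.54 and 2.2 CPM in vehicle. The Citri and Cimicifugae libraries did not overlap, and the difference was -0.96 ± 0.16 (adjusted p = 0.000266; 0.00355 without Citri replicate 3).

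TIPARP, an ADP-ribosyltransferase that marks AhR for degradation, was at 45.4, 63.3 and 17.7 CPM in the Citri libraries and 83.6, 74.9 and 75.6 CPM in the Cimicifugae libraries, with 35.3, 32.3 and 32.7 CPM in vehicle. Its lowest value was that of Citri replicate 3. The log2 difference was -0.88 ± 0.23 with all libraries (adjusted p = 0.0244) and -0.51 ± 0.18 without that library (adjusted p = 0.285), and -0.51 ± 0.09 in the 55-library fit, which also lacks it (adjusted p = 0.000653). TIPARP also missed the threshold when any 1 Cimicifugae library was left out (adjusted p = 0.0588 to 0.115). ALDH3A1, an aldehyde dehydrogenase also on the list, went the other way, at 733, 1372 and 1233 CPM in the Citri libraries against 636, 667 and 669 CPM in the Cimicifugae libraries (0.76 with all libraries, adjusted p = 0.00259; 0.69 without replicate 3, adjusted p = 0.0237). NQO1, UGT1A6 and XDH did not pass in any of the 3 fits. Of the 8 tested AhR targets, 1 was higher and 4 were lower with all libraries and in the 55-library fit, and 1 was higher and 3 were lower without Citri replicate 3. The list's median log2 difference was -0.72 with all libraries, -0.66 in the 55-library fit and -0.65 without replicate 3, where all tested genes had 0.00 in each. Over all tested genes, 6.26% were higher and 1.41% lower with all libraries, and 0.51% and 0.103% without replicate 3. In the 55-library fit 1.62% were higher and 0.862% lower. The list counts below are to be read beside these shares.

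**Figure D1:**
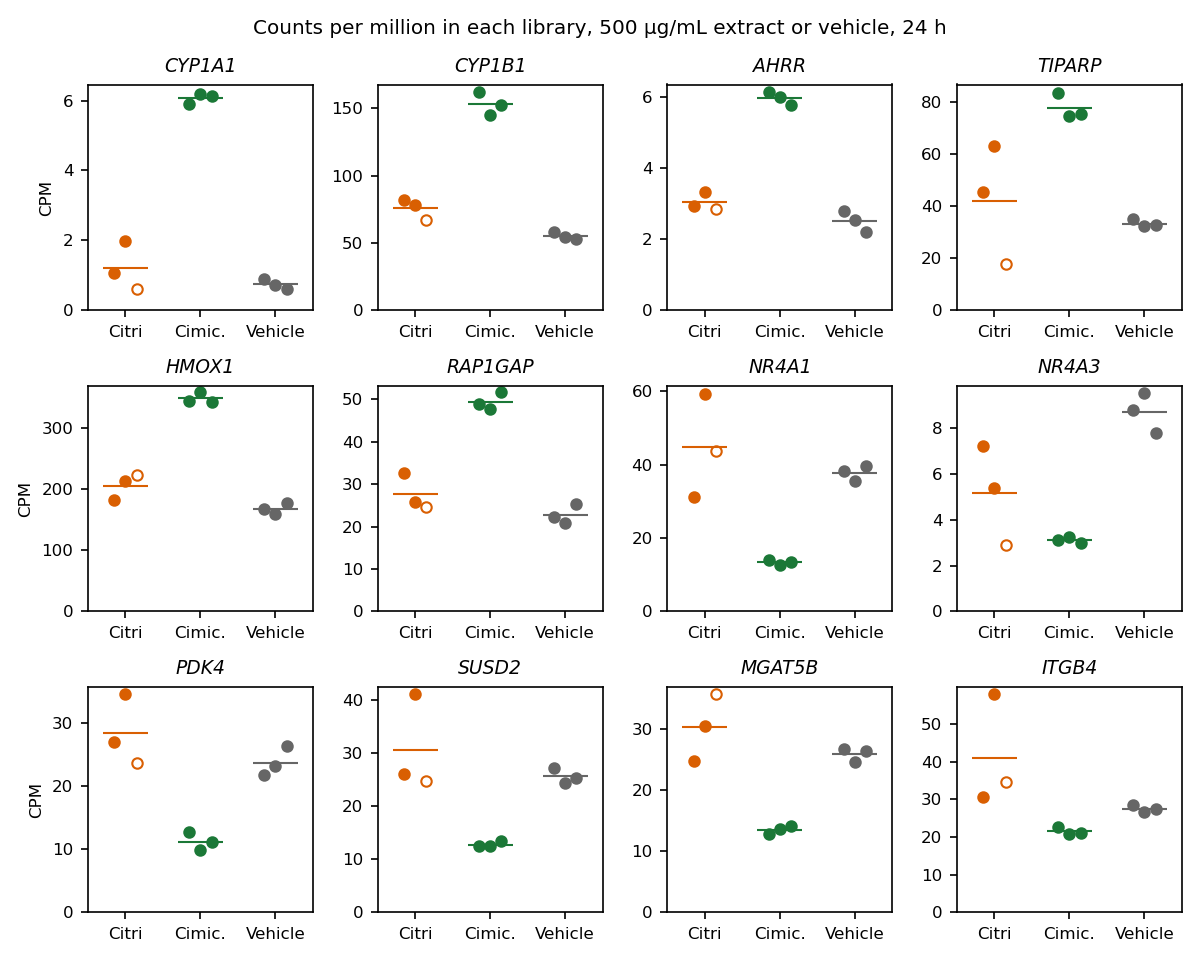
CPM (linear axes from 0) in each library of Citri (orange), Cimicifugae (green, Cimic.) and vehicle (grey) for 12 genes; points are libraries, bars are means and the open circle is Citri replicate 3. CYP1A1, CYP1B1, AHRR and HMOX1 had all 3 Citri libraries below all 3 Cimicifugae libraries, and NR4A1, PDK4, SUSD2, MGAT5B and ITGB4 had them above, as the naming rule required. For NR4A3 and TIPARP the open circle sits at the low end.

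HMOX1 (chr22:35380361-35394214, plus strand) encodes heme oxygenase 1, which opens the heme ring to biliverdin, iron and carbon monoxide. It was at 182, 214 and 223 CPM in the Citri libraries, 345, 360 and 343 CPM in the Cimicifugae libraries and 168, 160 and 177 CPM in vehicle. The Citri and Cimicifugae libraries did not overlap, at a log2 difference of -0.76 ± 0.11 (adjusted p = 5.88e-05) and -0.81 ± 0.13 without replicate 3 (adjusted p = 0.000167). GCLM, the modifier subunit of the enzyme that begins glutathione synthesis, was at 279, 247 and 248 CPM in the Citri libraries against 377, 340 and 333 CPM in the Cimicifugae libraries (-0.44, adjusted p = 0.000512; -0.41 without replicate 3, adjusted p = 0.00634). Lower calls made up 1.41% of all tested genes with all libraries, 0.103% without replicate 3 and 0.862% in the 55-library fit. Of 26 NRF2 targets, 0 were higher and 6 were lower with all libraries (median -0.10), 0 and 2 without replicate 3 and 0 and 6 in the 55-library fit (median -0.09 in both). The 4 calls absent without replicate 3 alone were SLC7A11, ME1, AKR1B10 and UGDH, which import cystine, make NADPH, reduce aldehydes and make UDP-glucuronate. All 4 had their lowest value in Citri replicate 3. ME1, AKR1B10 and UGDH were called in the 55-library fit, which also lacks that library (-0.25, -0.24 and -0.21). Of 22 genes of heme and iron handling, 1 was higher and 4 were lower with all libraries, 0 and 1 (HMOX1) without replicate 3, and 0 and 3 (HMOX1, SLC40A1 and FECH) in the 55-library fit. SLC40A1, the iron exporter ferroportin, was at 21.7, 13.4 and 11.7 CPM in the Citri libraries against 29.2, 25.8 and 27.9 CPM in the Cimicifugae libraries (-0.83, adjusted p = 0.00462; -0.67 without replicate 3, adjusted p = 0.0632; -0.69 in the 55-library fit, adjusted p = 0.0058). No library of the Citri group reached the Cimicifugae range for SLC40A1.

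RAP1GAP (chr1:21596215-21669363, minus strand), which switches off the small GTPase RAP1, was at 32.6, 25.9 and 24.6 CPM in the Citri libraries, 48.8, 47.6 and 51.7 CPM in the Cimicifugae libraries and 22.3, 20.9 and 25.2 CPM in vehicle. The Citri libraries lay below all Cimicifugae libraries, by -0.83 ± 0.11 (adjusted p = 6.06e-06; 0.000245 without replicate 3). RDH10, a retinol dehydrogenase, was at 44.6, 36 and 23.3 CPM in the Citri libraries against 66.9, 60.4 and 62 CPM in the Cimicifugae libraries (-0.86, adjusted p = 0.000965; -0.65 without replicate 3, adjusted p = 0.0185). STAT4, a transcription factor of interleukin signalling, was at 11.3, 9.26 and 9.63 CPM against 15.7, 14.4 and 16.6 CPM in the Cimicifugae libraries (-0.63, adjusted p = 0.000357; 0.00419 without replicate 3). Both had groups that did not overlap, as the naming rule required. Other lower genes of the naming rule were the secreted Wnt-binding protein SFRP4 (-0.71 without replicate 3), the potassium channel KCNC4 (-0.66) and CPT1A (-0.43). SFRP4, KCNC4 and CPT1A each lost the call when at least 1 Cimicifugae library was left out, and SFRP4 also without Citri replicate 2.

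Of 26 genes of cholesterol synthesis and uptake, 3 were higher and 3 lower with all libraries (6.26% and 1.41% of all tested genes were). In this list 0 were higher and 2 lower without replicate 3 and in the 55-library fit (0.103% and 0.862% of all tested genes were lower). The 3 higher, PMVK, MVD and TM7SF2, each had their highest value in Citri replicate 3. CPT1A, which admits long-chain fatty acids into mitochondria, was at 70.6, 51.7 and 64.4 CPM in the Citri libraries against 88.7, 78.7 and 80 CPM in the Cimicifugae libraries. Of 11 genes of fatty acid synthesis, 0 were higher and 4 were lower (ACACA, SCD, ELOVL6 and ME1) with all libraries. None was called without replicate 3, and 5 were lower in the 55-library fit (ACACA, ELOVL6, ME1 and the desaturases FADS1 and FADS2). That list's median was -0.20 with all libraries, -0.22 without replicate 3 and -0.23 in the 55-library fit. SCD, which desaturates stearate, differed by -0.56 with all libraries (adjusted p = 0.0428) and by -0.33 without replicate 3 (adjusted p = 0.512; 0.0774 in the 55-library fit).

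NR4A1 (chr12:52022832-52059507, plus strand) had the largest positive difference of the 12 higher genes that the naming rule gave. It was at 31.1, 59.2 and 43.7 CPM in the Citri libraries, 14, 12.7 and 13.5 CPM in the Cimicifugae libraries and 38.2, 35.6 and 39.5 CPM in vehicle. All Citri libraries lay above all Cimicifugae libraries, 1.74 ± 0.20 higher on the log2 scale (adjusted p = 2.56e-07) and 1.77 ± 0.22 without replicate 3 (adjusted p = 1.94e-06). NR4A3, its close relative, was at 7.21, 5.38 and 2.9 CPM in the Citri libraries against 3.12, 3.25 and 2.97 CPM in the Cimicifugae libraries, so that Citri replicate 3 lay below the Cimicifugae range; vehicle held 8.77, 9.52 and 7.78 CPM. Its difference was 0.74 ± 0.24 (adjusted p = 0.0472) and 1.00 ± 0.23 without that library (adjusted p = 0.0211). It lost the call when Citri replicate 1 or 2 or any Cimicifugae library was left out. NR4A2 was at 3.53, 7.82 and 3.4 CPM against 3.02, 2.88 and 2.07 CPM in the Cimicifugae libraries (0.94, adjusted p = 0.0406; 1.15 without replicate 3, adjusted p = 0.0632; 1.17 in the 55-library fit, adjusted p = 0.0123). Of 24 NR4A and other immediate early genes, 5 were higher and 0 lower with all libraries (median 0.35), 2 and 0 without replicate 3 and 8 and 0 in the 55-library fit (median 0.28 in both). Among all tested genes, 6.26%, 0.51% and 1.62% were higher in these 3 fits. IER2 and KLF6 were called with all libraries alone, and both had their highest value in replicate 3. EGR1, FOSB and FOSL1 were called in the 55-library fit alone, and their highest value was in Citri replicate 2. EGR1, an immediate early zinc finger factor, was at 1.44, 6.47 and 1.05 CPM in the Citri libraries against 1.29, 1.33 and 1.4 CPM in the Cimicifugae libraries.

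PDK4 (chr7:95583499-95596491, minus strand), a kinase that shuts off pyruvate dehydrogenase and spares glucose, was at 26.9, 34.5 and 23.6 CPM in the Citri libraries, 12.7, 9.91 and 11.1 CPM in the Cimicifugae libraries and 21.7, 23.1 and 26.3 CPM in vehicle. The groups of the 2 extracts did not overlap, at 1.34 ± 0.15 (adjusted p = 1.59e-07) and 1.46 ± 0.16 without replicate 3 (adjusted p = 9.46e-08). It was the only gene that stayed higher when the fit held only the 5 libraries left after removing Citri replicate 3, a setting chosen after the data had been seen; CYP1B1 was the only one lower there. SUSD2 (chr22:24181259-24189110, plus strand), a membrane protein with a sushi domain, was at 26.2, 41.2 and 24.8 CPM in the Citri libraries, 12.5, 12.6 and 13.4 CPM in the Cimicifugae libraries and 27.3, 24.5 and 25.3 CPM in vehicle. It was 1.27 ± 0.13 higher (adjusted p = 1.20e-08; 1.71e-09 without replicate 3). SLC2A3, the glucose transporter GLUT3, was at 33.5, 23.4 and 26.7 CPM in the Citri libraries against 19, 15.8 and 18.4 CPM in the Cimicifugae libraries (0.65, adjusted p = 1.48e-05; 0.68 without replicate 3, adjusted p = 2.68e-05). Of 35 genes of glycolysis and hypoxia, 5 were higher and 1 lower with all libraries and 2 (SLC2A3 and ENO2) and 0 without replicate 3, and 4 and 0 in the 55-library fit, with a median of 0.06 in each. Among all tested genes, 6.26%, 0.51% and 1.62% were higher in these 3 fits.

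MGAT5B, an N-acetylglucosaminyltransferase, was at 24.8, 30.5 and 35.8 CPM in the Citri libraries, 12.8, 13.6 and 14.2 CPM in the Cimicifugae libraries and 26.8, 24.6 and 26.4 CPM in vehicle (1.16 ± 0.10, adjusted p = 1.79e-09; 2.09e-08 without replicate 3). RNF43, a ubiquitin ligase that removes Wnt receptors, was at 7.21, 5.11 and 6.17 CPM against 2.54, 2.92 and 3.47 CPM in the Cimicifugae libraries (1.03, adjusted p = 0.00904; 0.0339 without replicate 3). RNF43 missed the threshold without Cimicifugae replicate 1 (adjusted p = 0.0696) or 2 (0.0512). Neither MGAT5B nor RNF43 had groups that overlapped, as the naming rule required. AXIN2, a scaffold of the beta-catenin destruction complex, was at 4.38, 2.88 and 1.98 CPM in the Citri libraries and 1.49, 1.48 and 1.75 CPM in the Cimicifugae libraries (0.97 with all libraries; 1.17 without replicate 3, adjusted p = 0.0292). MMP7, a matrix metalloproteinase, was at 4.81, 5.51 and 3.95 CPM against 2.06, 2.66 and 2.33 CPM in the Cimicifugae libraries (1.03; 1.14 without replicate 3, adjusted p = 2.40e-05). AXIN2 and MMP7 are outside the naming rule and were named after their values were seen. NKILA, a long noncoding RNA antisense to PMEPA1 that binds the NF-kB complex, was at 5.24, 5.54 and 5.06 CPM against 2.83, 3.11 and 2.72 CPM in the Cimicifugae libraries (0.87, adjusted p = 6.26e-05; 0.000176 without replicate 3). PMEPA1, an inhibitor of TGF-beta signalling and itself a TGF-beta target, was at 311, 358 and 440 CPM against 217, 218 and 223 CPM in the Cimicifugae libraries (0.75, adjusted p = 9.94e-08; 2.10e-06 without replicate 3). The libraries are strand-specific, but how the counting used strand is not stated, so reads of NKILA and PMEPA1 may not be fully separated.

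Higher calls made up 6.26% of all tested genes with all libraries, 0.51% without replicate 3 and 1.62% in the 55-library fit. Of 28 TGF-beta and mesenchymal genes, 4 were higher and 0 lower with all libraries and 2 (PMEPA1 and TGFBI) and 0 without replicate 3, with medians of 0.06 and 0.05. The 55-library fit called the same 4. The other 2, TAGLN and TPM1, had their highest value in Citri replicate 3. Of 16 YAP and TEAD targets, 2 were higher and 1 lower with all libraries, 3 (ANKRD1, NUAK2 and NT5E) and 0 without replicate 3, and 4 and 1 in the 55-library fit. ANKRD1, a cardiac-type ankyrin repeat protein, was at 13, 15.9 and 17.7 CPM in the Citri libraries against 8.3, 8.28 and 9.87 CPM in the Cimicifugae libraries (0.82, adjusted p = 0.000965; 0.0122 without replicate 3). Of 9 plasminogen activator and fibrinogen genes, PLAU, the urokinase, and PLAUR, its receptor, were higher in all 3 fits, and FGA was lower in the 55-library fit alone. PLAU was at 48.9, 90.6 and 46.7 CPM in the Citri libraries and 42.9, 45 and 46.8 CPM in the Cimicifugae libraries, so that only Citri replicates 1 and 2 lay above the Cimicifugae range. CXCL8, the neutrophil chemokine interleukin 8, had its difference in 1 library. CXCL8 was at 1.02, 7.14 and 0.556 CPM in the Citri libraries and 1.15, 0.74 and 0.608 CPM in the Cimicifugae libraries (1.98, adjusted p = 0.0269; 2.42 without replicate 3, adjusted p = 0.00591). Of 21 NF-kB and inflammatory genes, 4 were higher and 1 lower with all libraries and 2 (CXCL8 and PTGS2) and 0 without replicate 3, with medians of 0.32 and 0.40, and 5 and 1 in the 55-library fit.

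Citri replicate 2 held the highest Citri value in 50 of the 75 higher genes, replicate 3 in 16 and replicate 1 in 9. ITGB4, the integrin beta chain of hemidesmosomes, was at 30.6, 58.1 and 34.6 CPM in the Citri libraries against 22.8, 20.9 and 21.1 CPM in the Cimicifugae libraries (0.94, adjusted p = 6.06e-06; 1.89e-06 without replicate 3). MARCHF4, a membrane ubiquitin ligase, was at 13.1, 36.3 and 14.9 CPM against 9.11, 11 and 11.8 CPM in the Cimicifugae libraries; its difference was 1.03 with all libraries and 0.39 without Citri replicate 2 (adjusted p = 0.181). ANPEP, the aminopeptidase CD13, was at 6.57, 10.5 and 6.36 CPM against 5.13, 4.33 and 4.94 CPM in the Cimicifugae libraries (0.72; 0.43 without Citri replicate 2, adjusted p = 0.0753). These 3 genes had groups that did not overlap, as the naming rule required. EVA1C, a heparin-binding membrane protein, was at 6.25, 9.64 and 19.5 CPM against 4.08, 3.96 and 3.76 CPM in the Cimicifugae libraries. Its highest value was in Citri replicate 3, and its difference was 1.57 with all libraries and 1.04 without replicate 3 (adjusted p = 0.00282).

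Against vehicle, the 2 extracts share the 3 vehicle libraries, and those libraries are coded apart from set 12, so a difference from vehicle cannot be told apart from a difference between library sets. In the Citri group 821 genes (4.42% of 18568) were called with all libraries, 653 higher (3.52%) and 168 lower (0.905%), and 30 (0.163% of 18449) without replicate 3, 21 higher (0.114%) and 9 lower (0.0488%); the 55-library fit called 266 (1.45% of 18339). Leaving out vehicle replicate 2 left 0 called (3572 at an unadjusted p below 0.05). In the Cimicifugae group 70 genes (0.377%) were called, 28 higher (0.151%) and 42 lower (0.226%), and 683 (3.72% of 18339) in the 55-library fit. The log2 difference of CYP1A1 from vehicle was 1.07 in the Citri group without replicate 3 (adjusted p = 0.112) and 1.09 in the 55-library fit (adjusted p = 0.0376), where 3.00 ± 0.27 was found in the Cimicifugae group (adjusted p = 5.08e-10). For CYP1B1 it was 0.53 ± 0.10 in the Citri group without replicate 3 (adjusted p = 0.0168) and 1.47 ± 0.10 in the Cimicifugae group (adjusted p = 4.96e-13), above vehicle in both. For HMOX1 it was 0.23 (adjusted p = 0.576) in the Citri group and 1.05 ± 0.11 (adjusted p = 7.86e-08) in the Cimicifugae group. RAP1GAP had 0.35 (adjusted p = 0.265) in the Citri group and 1.12 ± 0.11 (adjusted p = 1.37e-08) in the Cimicifugae group.

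Among the genes higher in the Citri group, NR4A1 differed from vehicle by 0.27 in the Citri group without replicate 3 (adjusted p = 0.773) and by -1.49 ± 0.20 in the Cimicifugae group (adjusted p = 7.70e-06). PDK4 had 0.38 (adjusted p = 0.4) in the Citri group and -1.08 ± 0.15 (adjusted p = 1.59e-05) in the Cimicifugae group. SUSD2 had 0.40 (adjusted p = 0.204) in the Citri group, and in the Cimicifugae group it fell below vehicle (12.8 CPM on average against 25.7 CPM in vehicle, adjusted p = 1.84e-06). MGAT5B had 0.10 (adjusted p = 0.852) in the Citri group and -0.93 (adjusted p = 1.10e-07) in the Cimicifugae group. For these 4 genes, lower values than vehicle were called in the Cimicifugae group and no difference was called in the Citri group without replicate 3 or in the 55-library fit, where PDK4 and SUSD2 had adjusted p-values of 0.0845 and 0.0522. ITGB4 and ANPEP showed the other pattern: ITGB4 was 0.70 ± 0.13 above vehicle in the Citri group without replicate 3 (adjusted p = 0.00922) and differed by -0.35 in the Cimicifugae group (adjusted p = 0.384). ANPEP was 1.14 ± 0.18 above vehicle in the Citri group without replicate 3 (adjusted p = 0.00227), and its difference in the Cimicifugae group was 0.28 (adjusted p = 0.83). Both values in the Citri group rest on 2 libraries and lean on replicate 2. ITGB4 was at 30.6 and 58.1 CPM in Citri replicates 1 and 2, against 26.7 to 28.5 CPM in vehicle. ANPEP was at 6.57 and 10.5 CPM there, against 3.28 to 4.38 CPM in vehicle.

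**Figure D2:**
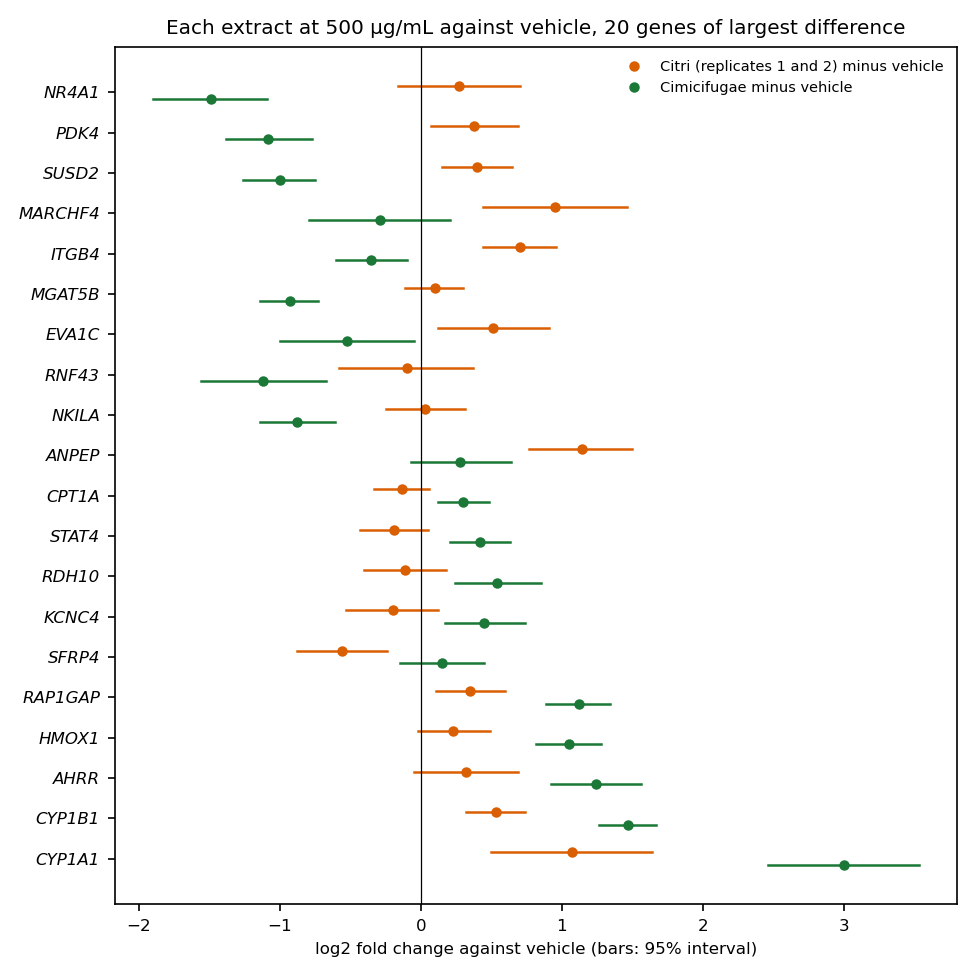
Log2 fold change against vehicle, with 95% interval, of 20 of the 24 genes with the largest differences between the extracts, for Citri replicates 1 and 2 (orange, upper of each pair) and all Cimicifugae libraries (green). For NR4A1 the Citri point is at 0.27 and the Cimicifugae point at -1.49, and for CYP1A1 they are at 1.07 and 3.00; both sets of points use the same 3 vehicle libraries.

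The extracts were also compared at the lower doses, each in its own libraries. At 20 µg/mL no gene was called (0%; 869 genes at an unadjusted p below 0.05 in edgeR, and 1 called by DESeq2). At 100 µg/mL 4 genes were called (0.0215%), which were NR4A1 and PDK4 higher (0.0108%) and CYP1A1 and CYP1B1 lower (0.0108%) in the Citri group. Leaving out Citri replicate 2 or Cimicifugae replicate 3 of that dose left 0 called (656 and 1161 at an unadjusted p below 0.05). At that dose Citri replicate 3 and Cimicifugae replicate 2 also had raised counts in antisense genes, and the 55-library fit, with 2 libraries a group there, called 3655 genes (19.9% of 18339). Of the 75 genes higher at 500 µg/mL, 71 had a positive log2 difference at 100 µg/mL (50.4% of all tested genes did) and 56 at 20 µg/mL (50.5%). Of the 17 lower genes, 15 had a negative difference at 100 µg/mL (49.4%) and 12 at 20 µg/mL (49.3%). The median log2 difference of the 75 genes was 0.09, 0.26 and 0.66 at 20, 100 and 500 µg/mL, and that of the 17 was -0.07, -0.28 and -0.64. The members were chosen at 500 µg/mL, so their size at that dose is a description. Citri replicate 2, which held the highest Citri value in 50 of the 75 genes at 500 µg/mL, stood apart at both doses. On principal component 2 (9.2% of the variance) it lay at 23.16 at 500 and 35.44 at 100 µg/mL. Citri replicate 1 lay at -7.93 and -8.33 there, and replicate 3 at -5.61 and -0.44. The part of replicate 2 in the agreeing signs was not tested.

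CYP1A1 averaged 0.868 ± 0.225, 1.05 ± 0.337 and 1.22 ± 0.696 CPM at 20, 100 and 500 µg/mL of Citri Unshius Pericarpium, and 1.04 ± 0.298, 2.97 ± 0.56 and 6.06 ± 0.146 CPM at the same doses of Cimicifugae Rhizoma (SD, n = 3 each). CYP1B1 averaged 61.9 ± 4.58, 64.2 ± 11.6 and 75.7 ± 7.49 CPM in the Citri groups and 64.9 ± 11.9, 91.8 ± 10.6 and 153 ± 8.24 CPM in the Cimicifugae groups. HMOX1 averaged 156 ± 15.8, 203 ± 44.1 and 206 ± 21.1 CPM in the Citri groups and 176 ± 35.9, 209 ± 22.7 and 349 ± 9.46 CPM in the Cimicifugae groups. At 100 µg/mL the groups overlapped for HMOX1, whose difference there was -0.04 (adjusted p = 0.907). NR4A1 averaged 38.6 ± 3.16, 57.3 ± 33.2 and 44.7 ± 14.1 CPM in the Citri groups and 35 ± 4.04, 25.3 ± 3.22 and 13.4 ± 0.667 CPM in the Cimicifugae groups. The SD of 33.2 came from Citri replicate 2 at 100 µg/mL, with 95.5 CPM against 35.5 and 40.8 CPM in the other 2. Replicate 2 also held the highest Citri value of NR4A1 at 500 µg/mL. PDK4 averaged 26.9 ± 3.8, 28.1 ± 5.02 and 28.4 ± 5.56 CPM in the Citri groups and 23.6 ± 5.42, 16.6 ± 3.34 and 11.2 ± 1.4 CPM in the Cimicifugae groups. SUSD2 averaged 29.4 ± 3, 27.4 ± 0.118 and 30.7 ± 9.11 CPM in the Citri groups and 23.7 ± 2.52, 21.7 ± 3.65 and 12.8 ± 0.51 CPM in the Cimicifugae groups.

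The test of whether the difference between the extracts itself differed between 500 and 20 µg/mL called 1304 genes (7.02%) with all libraries, 1168 positive (6.29%) and 136 negative (0.732%). It called 26 (0.142%) in the 55-library fit and 12 (0.065%) without Citri replicate 3, 11 positive (0.0596%) and 1 negative (0.00542%). They included NR4A1, PDK4, SUSD2, SEMA3F, PMEPA1, HSPA2, ITGB4, MORC4, MMP7 and MGAT5B with a positive and CYP1B1 with a negative value. For NR4A1 the difference grew by 1.60 (adjusted p = 0.00314; 0.00576 without replicate 3) and for PDK4 by 1.15 (adjusted p = 0.00449; 0.00195). For CYP1B1 it was -0.95 (adjusted p = 0.000457; 0.00195 without replicate 3). CYP1A1 had -1.92 (adjusted p = 0.0162), and -1.64 without replicate 3 (adjusted p = 0.0742).

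**Figure D3:**
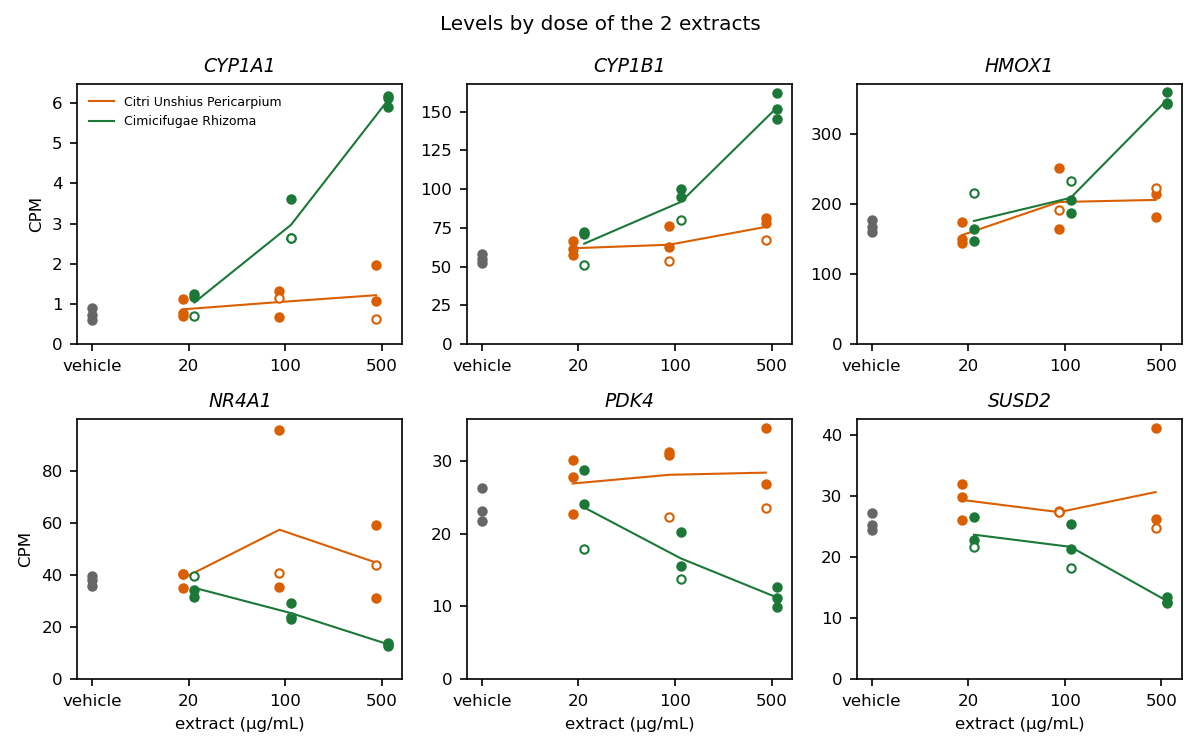
CPM (linear axes from 0) of 6 genes in vehicle (grey) and at 20, 100 and 500 µg/mL of Citri (orange) and Cimicifugae (green); points are libraries, lines join group means and open circles are the 4 libraries with raised antisense counts. CYP1A1 averaged 1.22 CPM in the Citri group and 6.06 CPM in the Cimicifugae group at 500 µg/mL, and PDK4 28.4 and 11.2 CPM; at 20 µg/mL the groups overlapped for all 6 genes.

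With all libraries, 1333 genes were called that were not called, or in a few cases not tested, without Citri replicate 3; 173 of them were called in the 55-library fit, which lacks it too. Of the 1163 higher genes, 1060 (91.1%) had their highest Citri value in replicate 3, and in 596 (51.2%) the 3 Citri and 3 Cimicifugae libraries did not overlap, a pattern that 7.51% of all tested genes showed. Of the 262 lower genes, 196 (74.8%) had their lowest Citri value in replicate 3, and in 234 (89.3%) the groups did not overlap, against 7.68% of all tested genes. These genes were called from the same libraries, so a share above that of all tested genes is no added support for them. The level of Citri replicate 3 (with 0.5 CPM added) was more than 2-fold from the mean log2 level of the other libraries of its group in 2199 of 11614 genes that reached 5 CPM in a library. The same count was 358 and 314 genes in Citri replicates 1 and 2, 24 to 36 in the Cimicifugae libraries and 21 or 22 in vehicle. The protein-coding transcripts of the genes called higher only with replicate 3 had a median GC content of 58.7%, and those called lower only with it 43.1%, where all tested coding genes had 48.9%; the median length was 2554, 5182 and 3628 bases. The 75 genes called higher in both fits had 52.4% and the 17 lower genes 50.4%. The part of GC content in these calls was not tested.

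CCDC85B had the largest difference among the coding genes of at least 5 CPM called only with replicate 3, at 22.4, 44.7 and 323 CPM in the Citri libraries and 20.5, 30.5 and 24.7 CPM in the Cimicifugae libraries (2.36, adjusted p = 0.0144; 0.43 without replicate 3, adjusted p = 0.768). RABL6, a RAB-like GTPase, was at 121, 130 and 878 CPM in the Citri libraries and 116, 130 and 125 CPM in the Cimicifugae libraries (1.61; 0.02 without replicate 3, adjusted p = 0.988). APOE, the lipid carrier apolipoprotein E, was at 6.2, 4.59 and 26.5 CPM against 3.55, 4.11 and 4.11 CPM in the Cimicifugae libraries (1.62; 0.44 without replicate 3, adjusted p = 0.643). C19orf33 and TYMP, thymidine phosphorylase, had the same pattern, with 536 and 42.9 CPM in replicate 3 against at most 120 and 6.98 CPM in the other Citri libraries. On the lower side the genes were PLSCR4, ITGA1, TC2N, OLFML2A and ST8SIA4, with log2 differences of -0.72 to -0.69. KRT19, a keratin of simple epithelia, was at 24.8, 29.4 and 83.4 CPM against 20.1, 25.6 and 25.1 CPM in the Cimicifugae libraries (0.95, adjusted p = 0.0354; 0.21 without replicate 3, adjusted p = 0.789). DUSP4, a phosphatase of MAP kinases, was at 142, 240 and 182 CPM against 150, 147 and 146 CPM in the Cimicifugae libraries (0.35, adjusted p = 0.0467; 0.38 without replicate 3, adjusted p = 0.203). CITED4, a transcriptional co-activator, was at 9.78, 28.4 and 45.1 CPM against 7.19, 14.8 and 15.3 CPM in the Cimicifugae libraries and was called in neither fit. TRIB3, a pseudokinase of the stress response, was at 78.3, 106 and 118 CPM against 94.2, 101 and 99 CPM in the Cimicifugae libraries (0.04, adjusted p = 0.907).

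**Figure D4:**
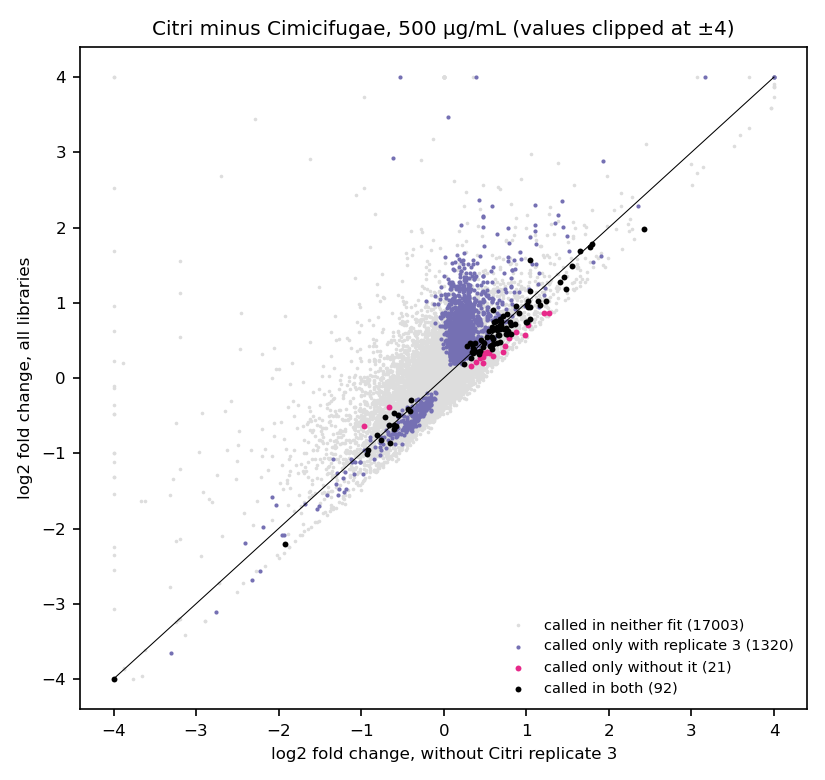
Log2 difference, Citri minus Cimicifugae at 500 µg/mL, of genes tested in both fits, with all libraries (vertical) against the fit without Citri replicate 3 (horizontal), clipped at 4 either way; colours mark genes called in neither fit (grey), only with replicate 3 (purple, 1320), only without it (pink, 21) and in both (black, 92). The genes called higher only with replicate 3 have a median of 0.67 on the vertical axis and 0.22 on the horizontal one; the black point in the lower left corner is TPRG1, with no count in any Citri library.

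Of the remaining lists, ribosome biogenesis had 13 of 27 members higher with all libraries (median 0.31), where 6.26% of all tested genes were, and 0 without Citri replicate 3 (median 0.16) or in the 55-library fit. Of 52 ribosomal proteins 3 were higher with all libraries, a share near that of all tested genes, and of 29 nuclear-encoded respiratory chain genes 4 were; none was called in the other fits. Of 29 lysosome and autophagy genes, 5 were higher with all libraries, 0 without replicate 3 and 2 (CTSB and CTSL) in the 55-library fit. Of 25 keratins and junction genes, 6 were higher with all libraries and 4 higher and 1 lower in the 55-library fit, while CLDN2, a claudin of leaky tight junctions, was the 1 called without replicate 3. CLDN2 was at 26.5, 29.8 and 49 CPM in the Citri libraries against 17.6, 18.7 and 19.5 CPM in the Cimicifugae libraries (0.91, adjusted p = 6.79e-05; 0.60 without replicate 3, adjusted p = 0.00359). MT2A and MT1X, metal-binding metallothioneins, were higher with all libraries (2 of 5 tested members) and in the 55-library fit (adjusted p = 0.0422 and 0.00743), and not without replicate 3 alone (adjusted p = 0.323 and 0.137). Of 8 markers of the line, KRT7, KRT8, KRT18 and EPCAM were higher with all libraries, with their highest value in replicate 3, and AKR1B10 was lower. None of the 8 was called without replicate 3, and KRT8 and KRT18 were higher and AKR1B10 and AKR1C1 lower in the 55-library fit. AREG, HSP90AA1 and PTTG1 were the single higher calls of the EGFR ligand, heat shock and mitosis lists with all libraries. With all libraries, DNA replication had 4 higher, glucocorticoid targets 2 higher, p53 targets 2 higher and 2 lower, abundant nuclear and noncoding RNAs 2 higher and 1 lower, and LXR and ATF4 targets 1 higher and 1 lower each. None of these was called without replicate 3, and the 55-library fit called AURKA (mitosis), CDC6 (replication), MT2A and SGK1 (glucocorticoid targets) higher. Among 23 interferon-stimulated genes 2 were higher and 1 lower with all libraries. OAS1 was higher and none lower without replicate 3, and OAS1 was higher and 1 gene lower in the 55-library fit. Among 17 FOXO and glucose-sensing targets PDK4 was higher in all 3 fits, and INSR was lower with all libraries and in the 55-library fit. MAPK feedback genes had DUSP4 higher with all libraries, DUSP7 without replicate 3, and DUSP7, PHLDA1 and EPHA2 in the 55-library fit. RBFOX3 was the 1 marker of other cell types called higher with all libraries and in the 55-library fit (0.68 and 0.50), and it was not called without replicate 3 alone. The clock list had 1 call, BHLHE40, higher in the 55-library fit. No member of the unfolded protein response, estrogen receptor, PXR and CAR, lung epithelial, histone, mitochondrial rRNA or mitochondrially encoded lists was called in any of the 3 fits.

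**Figure D5:**
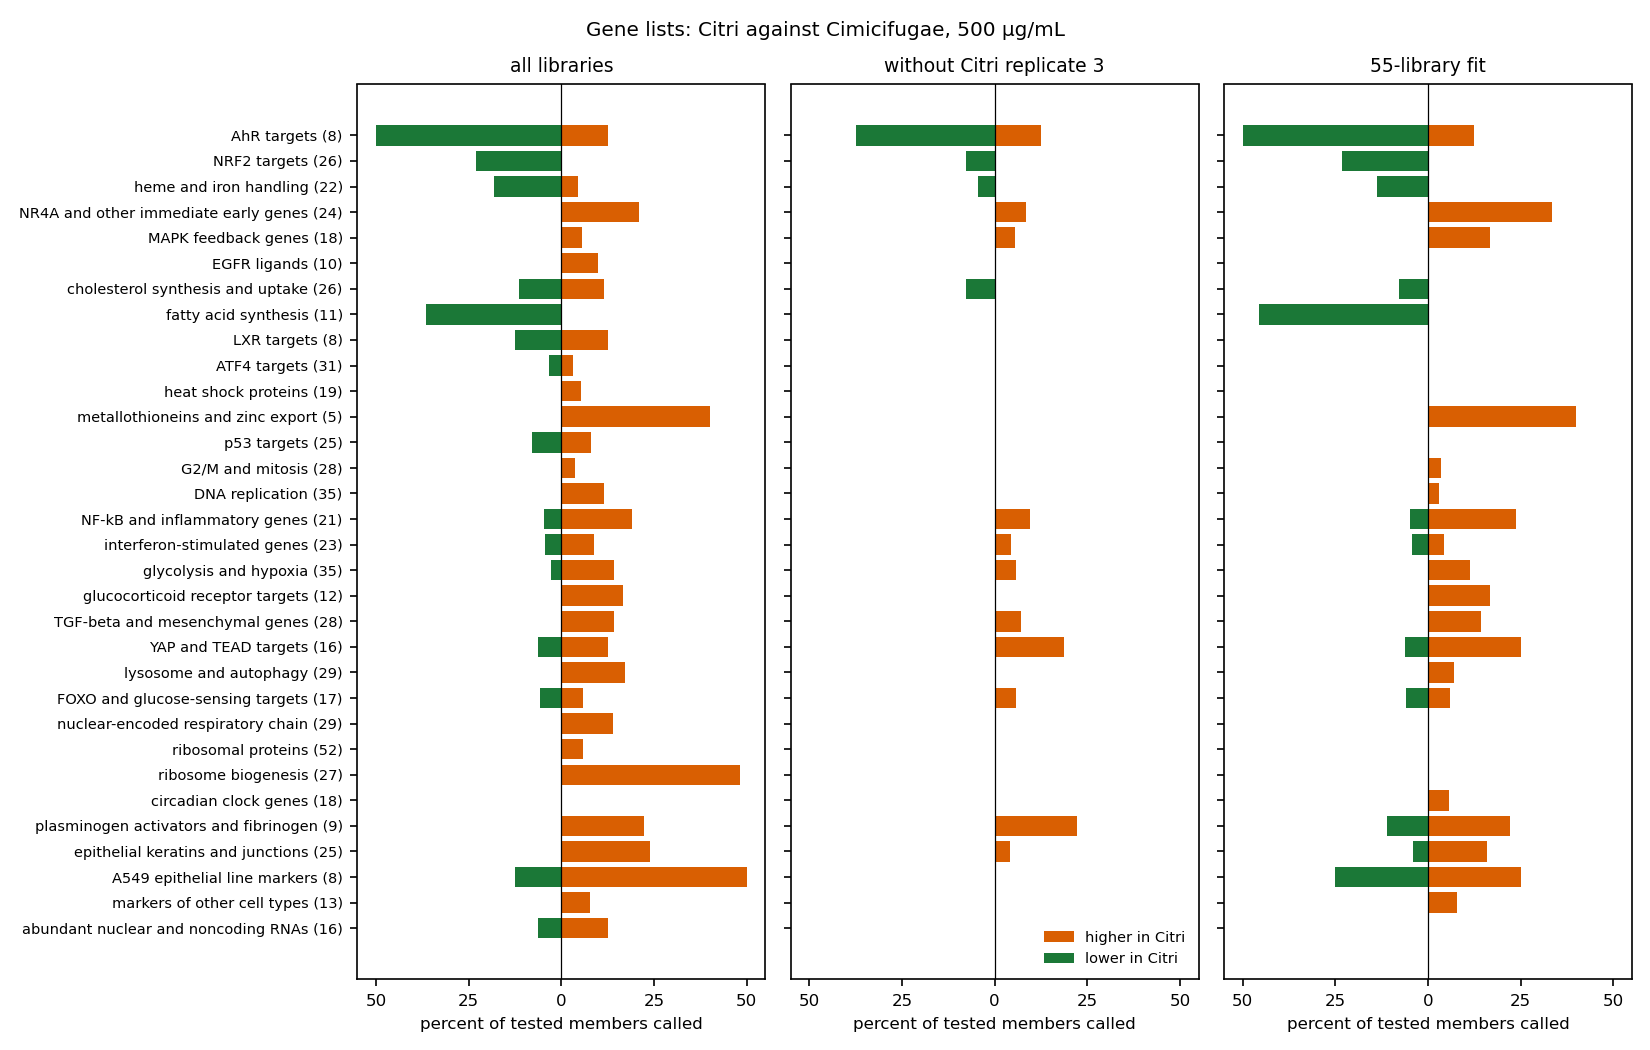
Percent of the tested members of each gene list (tested number in brackets) called higher (orange, to the right) or lower (green, to the left) in Citri than in Cimicifugae at 500 µg/mL, with all libraries (left panel), without Citri replicate 3 (middle) and in the 55-library fit (right); lists with no call in any of them are not drawn. Ribosome biogenesis, 13 of 27 in the left panel, has no bar in the others, fatty acid synthesis has 4, 0 and 5 of 11 lower, and AhR targets have 4, 3 and 4 of 8 lower.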

How the data were processed

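Bulk RNA was measured in 59 libraries of A549 cells. The submitters' processing notes name RSEM 1.3.3 and STAR 2.7.3a, Trim Galore 0.6.5 and FastQC 0.11.9, and the builds GRCh38 and hg38. No annotation release is stated. The authors deposited RSEM expected counts, which carry no depth scaling; they were rounded to whole numbers for testing. Left out were 210 columns of the table that match none of these samples. GENCODE 29 (GRCh38) gave symbols and positions and matched 94% of 60675 IDs.

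Groups came from the labels. Genes were filtered with filterByExpr (minimum count 10, minimum total 15), scaled by TMM and fitted in 1 model of 25 group means over all 59 libraries (edgeR 4.0.16 quasi-likelihood, R 4.3.3, 34 residual degrees of freedom), with Benjamini-Hochberg adjustment within each comparison. CPM values are TMM-scaled. Plus or minus is a standard error for log2 differences and an SD for CPM. In data simulated over 18044 genes, with 100 genes changed at each size, 66% of 1.5-fold and 96% of 2-fold changes were recovered and 10 unchanged genes were called. The simulation gave each gene the same spread in all libraries and changed only genes of at least 5 CPM. It held no library like Citri replicate 3, so these values do not describe recovery or false calls in the real comparison.

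Named genes were those called with and without Citri replicate 3 with groups that did not overlap and 5 CPM or more on average where higher, the 12 largest each way by the fit without that library, plus 14 genes named in earlier results of these data and the 5 largest coding genes each way called only with that library; the limit to coding genes was set after seeing the values. The members and all 39 gene lists were chosen with earlier results of these data known. Other settings were RLE scaling, DESeq2 1.42.0, limma 3.58.1 voom with quality weights, no filter, smaller fits, a replicate block and leaving out libraries. Some genes counted here are not reported by name.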

Additional observations from a re-analysis of the deposited data

Results flagged for a closer look

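The log2 difference between the extracts differed between 500 and 20 µg/mL for 25 of the genes reported here, by the test of that change (edgeR quasi-likelihood, Benjamini-Hochberg adjusted p below 0.05 with all libraries). Among genes also called without Citri replicate 3, the change was 1.60 for NR4A1, 1.15 for PDK4, 0.96 for SUSD2, 0.76 for ITGB4, 1.68 for EVA1C, 1.01 for MGAT5B and 0.65 for NKILA. It was -1.92 for CYP1A1, -0.95 for CYP1B1, -0.78 for AHRR, -0.59 for HMOX1, -0.78 for RAP1GAP, -0.68 for KCNC4, -0.86 for RDH10, -0.49 for STAT4 and -0.54 for CPT1A. Without Citri replicate 3, the change was called for NR4A1, PDK4, SUSD2, ITGB4, MGAT5B and CYP1B1 among these, and without all 4 libraries of raised antisense counts for these 6 and HMOX1.

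For genes whose difference at 500 µg/mL was called only with Citri replicate 3, the change was 3.26 for CCDC85B, 2.51 for C19orf33, 2.25 for RABL6, 2.16 for TYMP, 2.12 for APOE, 1.40 for KRT19, -0.95 for OLFML2A, -0.94 for PLSCR4 and -0.93 for TC2N. None of these 9 was called without that library, and the part of its raised antisense counts in them was not tested.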

How the results depend on the processing

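Of the 24 genes of largest difference, 17 stayed called (9 higher and 8 lower) in every fit that left out 1 of the 6 compared libraries, and no named gene that was called changed sign under any setting. TRIB3, not called, had 0.04 with all libraries and -0.09 without Citri replicate 3. Calls between the extracts at 500 µg/mL (1425) became 2147 with DESeq2, 2510 with no filter, 203 with voom weights, 0 in the fit of only the compared groups (670 genes at an unadjusted p below 0.05), 456 without the 4 libraries of raised antisense counts, and 2 in the fit of only 5 libraries, added after seeing the data. Leaving out 1 library gave 100 to 5052, namely 5052, 3068 and 113 without Citri replicate 1, 2 and 3, and 100, 121 and 113 without Cimicifugae replicate 1, 2 and 3. At 100 µg/mL (4) they became 23, 252 and 0 with DESeq2, no filter and the small fit, 3655 without the 4 libraries, and 0 to 599 with 1 left out. At 20 µg/mL (0) DESeq2 called 1 and no filter 298. For the change of the difference with dose (1304) the counts were 2223 with DESeq2, 2869 with no filter, 0 in the small fit, 26 without the 4 libraries, 17 with voom and 12 to 4841 with 1 left out. For Citri against vehicle (821) they were 1794, 2100, 0, 266, 117 and 0 to 4741 in that order. For Cimicifugae against vehicle (70) they were 122, 110, 929, 683, 2856 and 34 to 45. The small fits that called 0 had 167, 923 and 506 genes at an unadjusted p below 0.05, at 100 µg/mL, for the change with dose and for Citri against vehicle. Deviations from the group means of same-numbered libraries of the 2 extracts had correlations of 0.19, -0.08 and -0.02 at 500 µg/mL. They were 0.32, -0.03 and -0.18 at 100 µg/mL and 0.2, 0.11 and 0.03 at 20 µg/mL. The group means include the libraries of raised antisense counts, so these values cannot decide whether same-numbered libraries are paired. Pairing across doses was not tested, and the main fit used no replicate block. On principal component 1, Cimicifugae replicate 1 lay at -17.03, -18.03 and -17.98 at 500, 100 and 20 µg/mL. Replicate 3 lay at -5.72, -5.76 and -4.48, and replicate 2 at 2.81, 41.02 and 91.92. Citri replicates 1, 2 and 3 lay at -2.51, -6.24 and -13.73, at 6.84, 15.51 and 3.02, and at 107.03, 64.73 and 1.24. A replicate block gave 2679, 104, 2972, 4481 and 262 calls for the 5 comparisons other than 20 µg/mL, in the order above. The cause of these changes was not tested. Library totals of 17214755 and 18149446 in 2 of the 3 Citri libraries limit the precision of genes at a few CPM.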
